A study of Mus musculus with 4 samples.

Results

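The proteasome subunit genes are described here as 48 genes of the 55335 in the deposited tables. This set was chosen with earlier results of these data known. Its members are all genes whose symbol begins with Psm, followed by a letter from a to g and a number. They encode the rings of the core particle (Psma and Psmb), the ATPases and other subunits of the regulatory particle (Psmc and Psmd), the alternative activators (Psme), the inhibitor-like protein Psmf1 and the assembly chaperones of the core (Psmg). RNA came from cells that the labels call CD4+ T cells, taken from the back skin of mice treated with imiquimod, a Toll-like receptor 7 agonist that gives a psoriasis-like inflammation. The 2 knockout libraries were from Mettl3fl/fl;Cd4-Cre mice, in which Cre under the Cd4 promoter is active in developing T cells, so Mettl3 is not the target in cells of other lineages. The 2 control libraries were from Mettl3fl/fl mice, so both groups carry the floxed alleles. All mice were 8 to 12 weeks old and received 5% imiquimod cream on 5 consecutive days, at 15 or 62.5 mg per day, with the amount for each mouse not given in the sources used here. Mettl3 is the catalytic subunit of the enzyme that writes N6-methyladenosine on RNA.

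The proteasome degrades proteins tagged with ubiquitin. Its core is a barrel of alpha and beta rings whose proteolytic sites lie in 3 beta subunits, Psmb5, Psmb6 and Psmb7. In cells exposed to interferons, and at high levels in many immune cells, these are replaced in new particles by Psmb8, Psmb9 and Psmb10, which form the immunoproteasome and favour peptides that suit MHC class I. A regulatory particle with a base and a lid, or an activator ring such as the one made by Psme1 and Psme2, opens the core.

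Totals were 4316904 and 4353365 counted fragments in knockout 1 and knockout 2, and 4537006 and 3614418 in control 1 and control 2, which were numbered only to name them. The number of mice behind each library is not stated, and the spread between libraries that enters each p-value may be technical. Mettl3 had 121 and 158 fragments in the knockouts and 195 and 49 in the controls, with 0 in exons given to a protein-coding transcript, so it does not check the deletion. Control 2 stood apart: 4064 of the 12434 genes tested had no fragment there, against 221 and 860 in the knockouts and 229 in control 1. Levels are given as CPM, fragments relative to the library size scaled by TMM. The 13 T cell markers summed to 345.4 and 182.7 CPM in the knockouts and to 1181 and 382.5 CPM in the controls, and Cd4, Cd5 and Lck were at 0 in control 2. In knockout 2, 2 of the 13 were at 0, against 0 in knockout 1 and 0 in control 1. Cd4 itself had 420 and 9 fragments in the knockouts and 777 and 0 in the controls. The 13 macrophage and monocyte markers summed to 29575 and 28155 CPM in the knockouts and to 19465 and 9927 CPM in the controls, so markers of cells other than T cells were counted in every library. The 10 keratinocyte markers summed to 2702 and 1319 CPM in the knockouts and to 1881 and 26237 CPM in the controls. Sums were 5598 and 5700 CPM in the knockouts and 12029 and 2583 CPM in the controls for 7 fibroblast markers, and 1757 and 939.0 CPM in the knockouts and 391.6 and 269.2 CPM in the controls for 7 neutrophil markers.

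No proteasome subunit gene differed detectably between knockout and control libraries. Of the 48 genes, 45 had a fragment in at least 1 library, and 42 passed the low-count filter and were tested. At an adjusted p of 0.05 (edgeR quasi-likelihood test, Benjamini-Hochberg over all 12434 genes), 0 of the 42 were called, against a background of 0% of all genes. At an unadjusted p of 0.05, the count was also 0 of 42, against 1.5% of all genes, and DESeq2 and limma-voom likewise called 0 members. The lowest unadjusted p of any member was 0.165, for Psmd6, and the adjusted p was 0.9999 for Psmd14 and 0.9997 for the other 41 members tested. Log2 fold changes (knockout over control) lay between -1.91 and 3.07, with standard errors of 0.49 to 3.01, and 34 of 42 were within 1 of 0 on either side. With errors of this size, the libraries could show only large differences. The median over the members tested was 0.09, beside 0.20 over all genes tested. Without control 1 these medians were 0.11 and 1.72, and without control 2 they were 0.09 and 0.05, so the distance between members and all genes depends on the library. The signs were nearly evenly divided, with 22 members positive (52.4%, against 56.9% of all genes) and 20 negative.

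The groups were fully separated for about as large a share of the members as of all genes. Both knockouts lay above both controls for 8 of 42 members (19%), against 19.5% of all genes. These 8 were Psmb8, Psmb9, Psmb6, Psmb1, Psmb4, Psmc3, Psmc4 and Psmd8. Both knockouts lay below both controls for 5 members (11.9%), against 11.2% of all genes, namely Psmc6, Psmd6, Psmd7, Psme2 and Psmg4. The groups overlapped for the other 29. Set against control 1 alone, both knockouts were above it for 14 members (33.3%, background 28.8%) and below it for 9 (21.4%, background 31.5%).

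**Figure D1:**
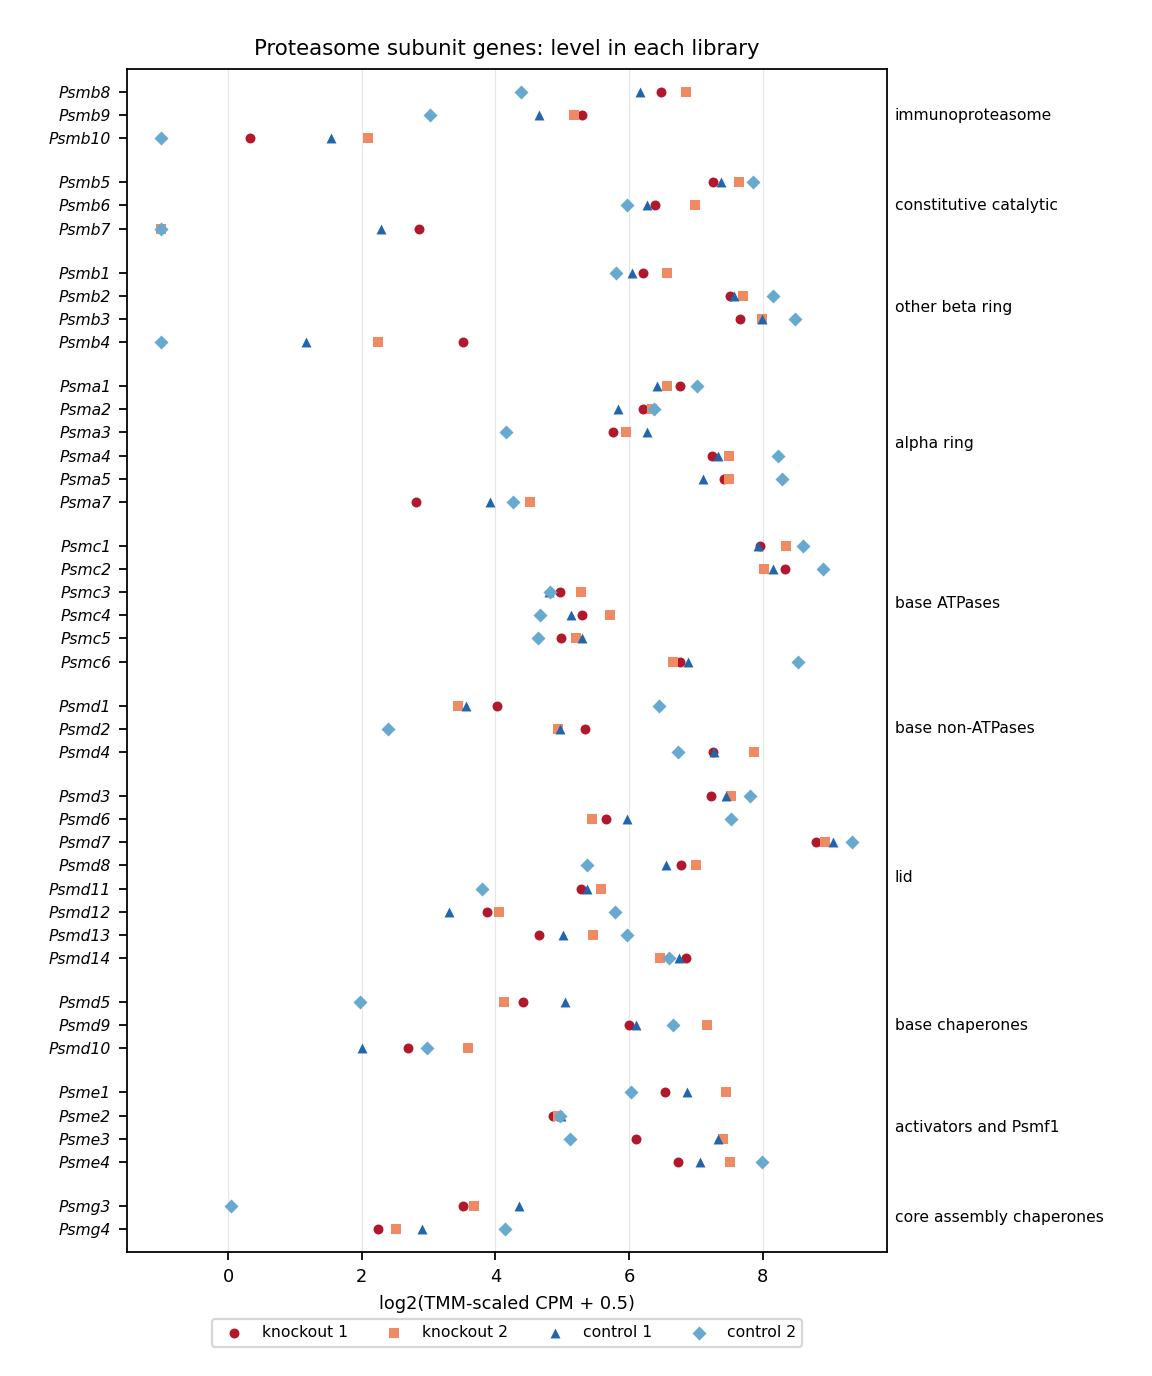
Level of the 42 tested proteasome subunit genes in each library, as log2(CPM + 0.5), with genes grouped by their place in the particle and 1 symbol per library. Control 2 (light blue diamonds) is the highest library for 18 genes and the lowest for 17, while the knockouts and control 1 lie close together for most genes.

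The inducible catalytic subunits had positive log2 fold changes without passing the test. Psmb8 (chromosome 17, 34197721 to 34201454, plus strand, GRCm38), which replaces Psmb5 in new particles, was at 88.4 and 115.4 CPM in the knockouts, against 71.4 and 20.3 CPM in the controls. Both knockouts were above both controls, and the distance between the controls was the larger one. Psmb8 averaged 101.9 ± 19.1 CPM in knockouts and 45.9 ± 36.1 CPM in controls (SD, n = 2 each). On the log2 scale the fold change was 1.15 ± 0.95 (standard error; edgeR, adjusted p = 0.9997). Without control 2 it was 0.50, and without control 1 it was 2.39. Psmb9 (chromosome 17, 34181987 to 34187764, minus strand), the inducible counterpart of Psmb6, was at 38.9 and 35.7 CPM in the knockouts and at 24.7 and 7.65 CPM in the controls. Its log2 fold change was 1.20 ± 1.22 (standard error), or 0.59 without control 2 and 2.35 without control 1. For both genes control 2 was the lowest library and control 1 lay between it and the knockouts. Psmb10, the counterpart of Psmb7, had only 3 and 16 fragments in the knockouts and 11 and 0 in the controls, too few to order the libraries.

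Of the constitutive catalytic subunits, Psmb5 and Psmb6 were at closer levels across libraries than Psmb8 and Psmb9. Psmb5, which carries the chymotrypsin-like site (chromosome 14, 54614119 to 54618022, minus strand), was at 152.8 and 199.5 CPM in the knockouts and at 166.1 and 229.9 CPM in the controls. The groups overlapped (log2 fold change -0.17, standard error 0.60). Psmb6 (chromosome 11, 70525367 to 70527858, plus strand), which carries the caspase-like site, was at 83.1 and 126.0 CPM in the knockouts and at 76.8 and 62.0 CPM in the controls (log2 fold change 0.59, standard error 0.74). Its knockouts were both above both controls and control 2 was its lowest library, as for Psmb8 and Psmb9. Psmb7, which carries the trypsin-like site, had 27 and 0 fragments in the knockouts and 20 and 0 in the controls, so no level could be compared. A count of 0 allows up to 0.709 CPM in knockout 2 and 0.792 CPM in control 2 (3 fragments per library). These limits cover counting error only, since no molecular identifiers are described.

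The summed fragments of the 3 inducible subunits, divided by those of the 3 constitutive ones, gave a ratio of 0.528 in knockout 1 (513 over 972 fragments, exact binomial 95% interval 0.473 to 0.588). It was 0.476 in knockout 2 (655 over 1377, 0.433 to 0.522), 0.398 in control 1 (451 over 1133, 0.356 to 0.444) and 0.0958 in control 2 (106 over 1106, 0.0778 to 0.117). Control 2 was thus far below the other libraries, and the intervals of knockout 2 and control 1 overlapped. The intervals cover counting error within a library only, and 2 libraries against 2 cannot give an exact two-sided permutation p below 0.3333, so the ratio was not tested. Only its change between libraries can be read, because different numbers of bases were countable in each gene. Without exons of retained-intron transcripts the order was lost, with 0.0180 and 0.0154 in the knockouts and 0.0145 and 0.0344 in the controls, on 11, 13, 11 and 30 inducible fragments.

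The sums of the interferon response, macrophage and monocyte, and neutrophil lists fell in the same order of libraries as this ratio. Those of the keratinocyte, T cell and fibroblast lists did not. The 15 interferon response genes summed to 1512 and 1056 CPM in the knockouts and to 439.4 and 150.5 CPM in the controls. In control 2, 10 of the 15 were at 0, among them Ifit1, Isg15 and Mx1, against 1 and 3 in the knockouts and 4 in control 1. Of the 11 tested, 11 had a positive log2 fold change (background 56.9%) and 10 had both knockouts above both controls (background 19.5%). Of the 12 macrophage and monocyte markers tested, 12 were positive and 9 had both knockouts above both controls, against the same 56.9% and 19.5% of all genes, while Itgam was the only marker of that list at 0 in control 2. Keratinocyte markers had their highest sum in control 2, where 0 of the 10 lacked fragments. The 13 T cell markers were all negative, with both knockouts below both controls for 7 (background 11.2%). The part of these lists in the ratio was not tested, and fewer cells of a type cannot be told apart from less RNA per cell.

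**Figure D2:**
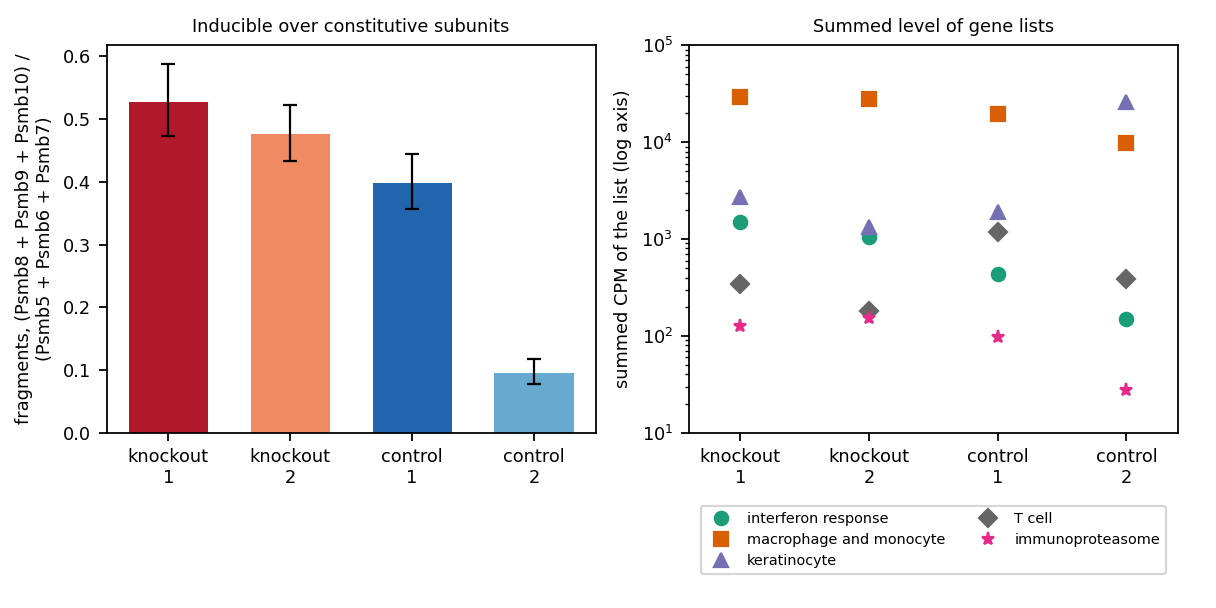
Left, ratio of fragments of Psmb8, Psmb9 and Psmb10 to those of Psmb5, Psmb6 and Psmb7 in each library, with exact binomial 95% intervals as bars. Right, summed CPM of 5 gene lists in each library on a log axis. The ratio is 0.398 to 0.528 in 3 libraries and 0.0958 in control 2, where the interferon response list is lowest and the keratinocyte list highest.

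Psmb9 lies head to head with Tap1, a subunit of the transporter that carries the resulting peptides into the endoplasmic reticulum. In RefSeq's GRCm38.p6 promoter windows of 300 bases, the windows of the 2 genes share 275 bases. Tap1 had 81 and 55 fragments in the knockouts and 56 and 0 in the controls (log2 fold change 1.43, standard error 2.33). Control 2 was the lowest library for Tap1 and Psmb9, as it was for 51.6% of all genes tested. A link between the levels of the 2 genes was not tested. Of 12 genes of class I presentation and its transcription factors, 10 were tested, 0 were called, all 10 were positive (56.9% of all genes) and 4 had both knockouts above both controls (19.5% of all genes). Irf8, an interferon regulatory factor and the one with the lowest p, was at 308.0 and 192.0 CPM in the knockouts and at 194.5 and 53.1 CPM in the controls. B2m, the light chain of MHC class I, was at 5477 and 5750 CPM in the knockouts and at 4055 and 5517 CPM in the controls. Its level in control 2 was thus close to that of the knockouts, unlike Psmb8, Psmb9 and Tap1.

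The remaining beta subunits, which carry no proteolytic site, went both ways. Psmb3 was at 200.9 and 254.4 CPM in the knockouts and at 254.3 and 357.1 CPM in the controls (log2 fold change -0.43, standard error 0.56). Psmb4 had the largest log2 fold change of the members tested, 3.07 ± 2.41 (standard error), on 44 and 18 fragments in the knockouts and 8 and 0 in the controls. Of its 70 fragments, 31 were in 1 retained-intron exon and in knockout 1 alone. Psmb1 was at 73.4 and 94.3 CPM in the knockouts and at 65.7 and 55.4 CPM in the controls, and Psmb2 differed by -0.29 on the log2 scale.

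Alpha ring subunits form the gated entrance of the core, and control 2 was the highest library for 4 of the 6 tested. It was the lowest for Psma3, at 53.4 and 61.2 CPM in the knockouts and 76.8 and 17.4 CPM in the controls. Psma7 varied among all libraries, at 6.49 and 22.5 CPM in the knockouts and 14.6 and 18.7 CPM in the controls. Of the 6, 2 had a positive and 4 a negative log2 fold change, between -0.48 and 0.28. Psma4 was at 150.0 and 180.1 CPM in the knockouts and at 160.7 and 300.1 CPM in the controls (log2 fold change -0.48, standard error 0.63, or 0.03 without control 2). Psma5 was at 170.5 and 179.4 CPM in the knockouts and at 136.7 and 313.1 CPM in the controls (-0.36, standard error 0.67, or 0.35 without control 2). For both genes control 2 was above the other 3 libraries, and without it neither fold change was negative. Psma6 had 0 fragments in every library, and 16 of its 24 exon entries share their coordinates with another entry, and no entry of that kind held a fragment in these tables, so its 0 does not show that the gene is silent. Psma8, a subunit of germ cells, and Psmb11, which is limited to the cortical epithelium of the thymus, had 0 fragments in all 4 libraries. Of the 38 exon entries of Psma8, 27 share their coordinates with another, so its 0 has the same limit as that of Psma6. None of the 3 exon entries of Psmb11 shares its coordinates.

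The 6 ATPases of the base unfold substrates and thread them into the core. They were divided evenly, with 3 positive and 3 negative log2 fold changes. Psmc6 (chromosome 14, 45329788 to 45349705, plus strand) was at 108.3 and 100.5 CPM in the knockouts and at 117.9 and 369.5 CPM in the controls. Both knockouts were below both controls, but by little against control 1. The log2 fold change was -1.22 ± 0.77 (standard error; edgeR, adjusted p = 0.9997), or -0.18 without control 2. Psmc2 was at 322.5 and 257.7 CPM in the knockouts and at 283.1 and 475.4 CPM in the controls (-0.39, standard error 0.57), and 0.03 without control 2. Psmc3 and Psmc4, in contrast, had both knockouts above both controls, at 30.7 and 38.3 CPM against 27.3 and 27.7 CPM for Psmc3.

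Of the other base subunits, Psmd1, a scaffold, had the lowest log2 fold change of all members tested, -1.91 ± 1.39 (standard error). It was at 15.7 and 10.4 CPM in the knockouts and at 11.4 and 87.1 CPM in the controls. Control 1 lay between the knockouts, and without control 2 the log2 fold change was 0.19. Psmd2, its fellow scaffold, showed the reverse, at 39.9 and 30.3 CPM in the knockouts and at 30.8 and 4.75 CPM in the controls (0.98, standard error 1.36). Its log2 fold change was 0.18 without control 2 and 2.94 without control 1, so the size rests on control 2. Psmd4, a receptor for ubiquitin chains, was at 151.8 and 233.6 CPM in the knockouts and at 154.3 and 105.8 CPM in the controls (0.57, standard error 0.64).

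The lid holds Psmd14, the enzyme that removes ubiquitin chains from substrates, and structural subunits. Of its 8 genes, 2 were positive and 6 negative on the log2 scale (median -0.29). Psmd6 (chromosome 14, 14112174 to 14120984, minus strand) was at 49.9 and 43.0 CPM in the knockouts and at 62.0 and 184.5 CPM in the controls (log2 fold change -1.41, standard error 0.87), or -0.42 without control 2. Psmd7 was at 445.8 and 489.4 CPM in the knockouts and at 530.0 and 648.8 CPM in the controls (-0.33, standard error 0.49). For Psmd6 and Psmd7 the groups did not overlap, and without control 2 both remained negative. Psmd8 went the other way, at 109.1 and 127.9 CPM in the knockouts and at 93.0 and 40.9 CPM in the controls (0.82, standard error 0.79, or 0.34 without control 2). Psmd14 was at 115.6 and 87.7 CPM in the knockouts and at 106.7 and 96.6 CPM in the controls.

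Among the chaperones that help to build the base, Psmd9 was at 63.6 and 143.3 CPM in the knockouts and at 68.5 and 100.04 CPM in the controls, and Psmd10, also known as gankyrin, had 24 and 49 fragments in the knockouts and 16 and 28 in the controls. Psmd5, the third, had 83 and 72 fragments in the knockouts and 148 and 13 in the controls. The groups overlapped for all 3. Of the core assembly chaperones, Psmg3 had 44 and 52 fragments in the knockouts and 91 and 2 in the controls, and Psmg4 had 17 and 22 in the knockouts and 32 and 65 in the controls. Psmg1 and Psmg2 did not pass the low-count filter. Psmg1 had 4 and 3 fragments in the knockouts and 13 and 1 in the controls, and Psmg2 had 7 and 1 in the knockouts and 6 and 110 in the controls.

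The activators of the core differed among themselves. Psme1 and Psme2 form 1 interferon-inducible ring. Psme1 (chromosome 14, 55578123 to 55581529, plus strand) was at 92.8 and 174.9 CPM in the knockouts and at 116.3 and 64.7 CPM in the controls (log2 fold change 0.56, standard error 0.76). Psme2 (chromosome 14, 55587441 to 55591113, minus strand) was at 28.7 and 30.0 CPM in the knockouts and at 31.2 and 30.6 CPM in the controls, the narrowest range of the 42 tested members (log2 fold change -0.07, standard error 1.04). Its partner varied more, with 3.23 and 5.83 fragments of Psme1 for each of Psme2 in the knockouts and 3.73 and 2.11 in the controls. Psme3, the nuclear activator, was at 68.1 and 169.7 CPM in the knockouts and at 160.7 and 34.1 CPM in the controls, and its log2 fold change of 0.29 was -0.44 without control 2 and -0.48 without knockout 2. Psme4, known for degradation of acetylated histones, was at 105.8 and 181.6 CPM in the knockouts and at 133.6 and 253.4 CPM in the controls. Psmf1, a protein first described as an inhibitor of the core, had 14 and 0 fragments in the knockouts and 2 and 0 in the controls and was not tested.

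**Figure D3:**
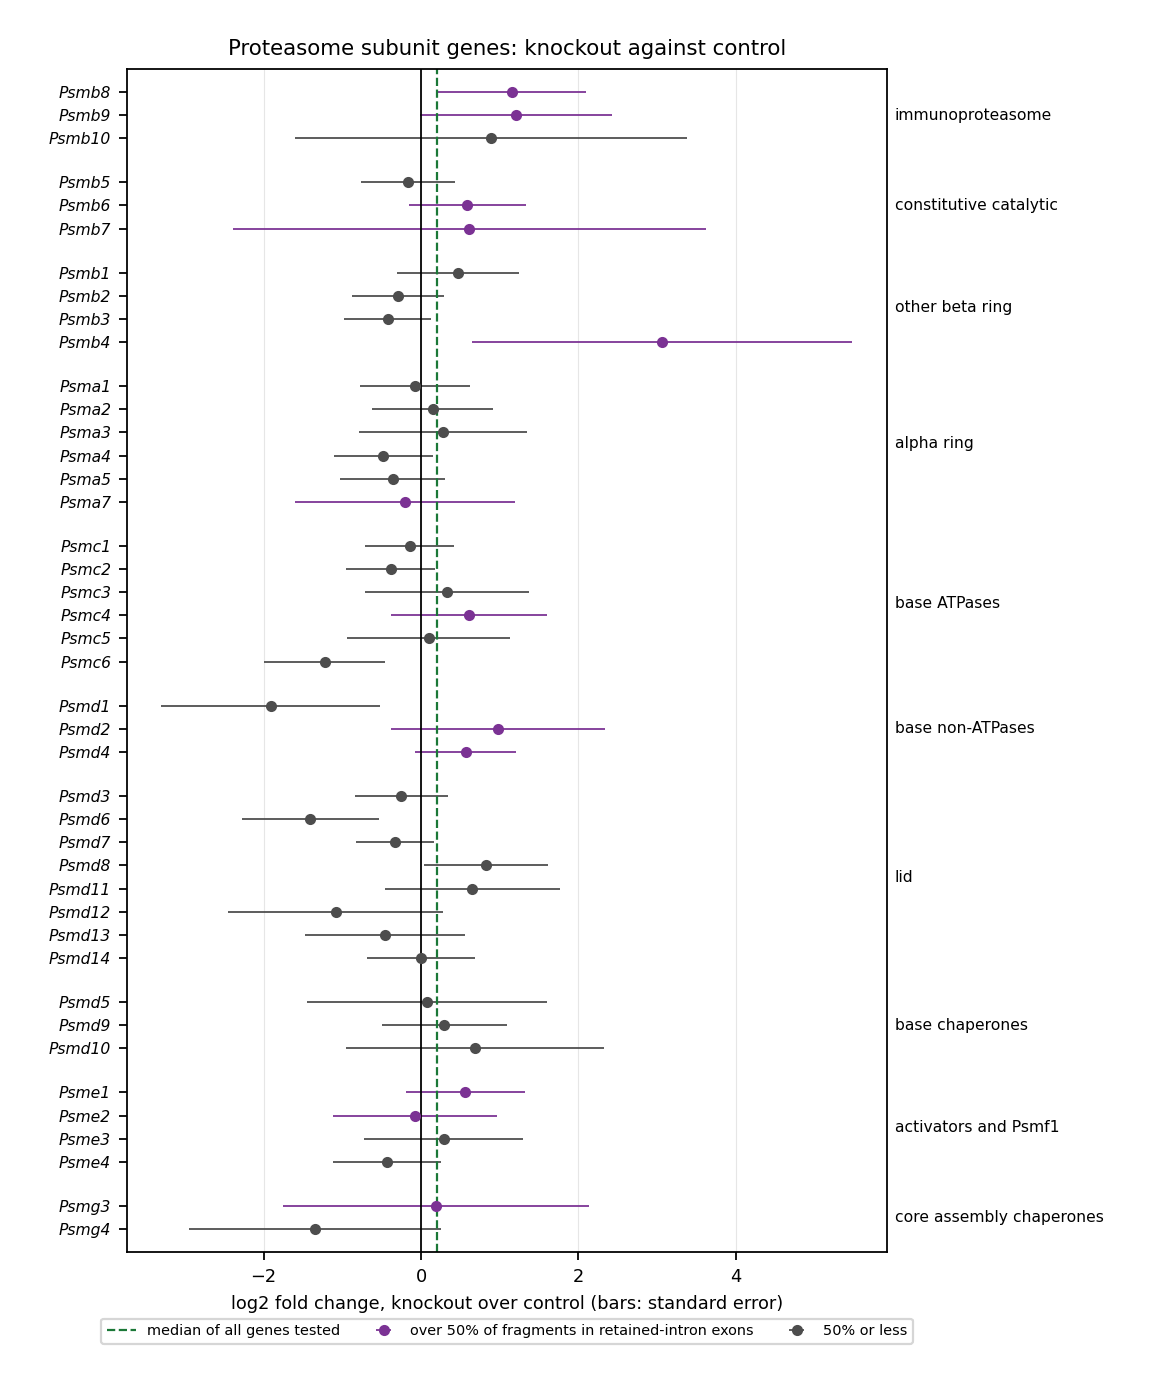
Log2 fold change of knockout over control for the 42 tested genes, with edgeR standard errors as bars and genes grouped by their place in the particle. Purple points mark the 12 genes with over 50% of their fragments in exons of retained-intron transcripts, and the dashed line is the median of all genes tested, 0.20. The bars of most genes cross 0, and 10 of the 12 purple points lie above it, as do 56.9% of all genes tested.

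The kind of exon that could be counted divided the members. Of 1683 exon entries of the 48 genes, 1070 share their coordinates with another entry and held no fragment, and 231 held any. Retained-intron exons, which belong to transcripts that keep an intron and make no protein, held 23.2% and 24.4% of the members' fragments in the knockouts and 20% and 10.6% in the controls. Over all genes the shares were 9.33% and 8.89% in the knockouts and 7.63% and 7.23% in the controls. Psmb8 had 97% of its fragments in such exons, Psmb9 98.9%, Psmb6 100%, Psme1 99.9% and Psme2 99%, while Psmb5 and Psma5 had 0%. The leading Psmb8 entry (34199571 to 34200221) had 188 and 266 in the knockouts and 196 and 29 in the controls. The values of Psmb8, Psmb9 and Psme1 thus come mainly from entries of that label, which does not show which transcript a fragment came from. Another such Psmb8 entry (34199233 to 34199682) had 0 bases covered by it alone. It held 157 and 222 fragments in the knockouts and 128 and 18 in the controls. The ratio of inducible to constitutive subunits sets Psmb8 and Psmb9 in part against Psmb5, counted in exons of protein-coding transcripts. Psmb6 was counted in retained-intron exons, as Psmb8 mostly was. Per Psmb6 fragment there were 1.06 and 0.916 of Psmb8 in the knockouts and 0.929 and 0.328 in the controls.

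Of the 12 tested members with over 50% of their fragments in retained-intron exons, 10 were positive on the log2 scale (median fold change 0.60). Control 2 was the lowest library for 9 of the 12 and the highest for 0. Their summed level was 597.8 and 836.9 CPM in the knockouts and 580.9 and 340.0 CPM in the controls. Of the other 30 members, 12 were positive (median -0.16), and control 2 was the highest library for 18 and the lowest for 8. Over all genes tested, 56.9% were positive, and control 2 was the lowest library for 51.6% and the highest for 27%. The sum of the 30 members was 3138 and 3691 CPM in the knockouts and 3371 and 4883 CPM in the controls. Without control 2 the counts were 8 of 12 and 18 of 30, with medians of 0.25 and 0.04, so the 2 kinds differed less. Without control 1 they were 11 of 12 and 12 of 30, with medians of 1.73 and -0.34. The 30 include Psmd1 and Psmd13, close under the cut at 49.9% and 48.6% and highest in control 2, and Psma3, at 44.2% and lowest there. They also include Psmc5 and Psmc3, with 0% and 0.194% of their fragments in exons of protein-coding transcripts. This division was chosen after the values were seen and has no test.

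**Figure D4:**
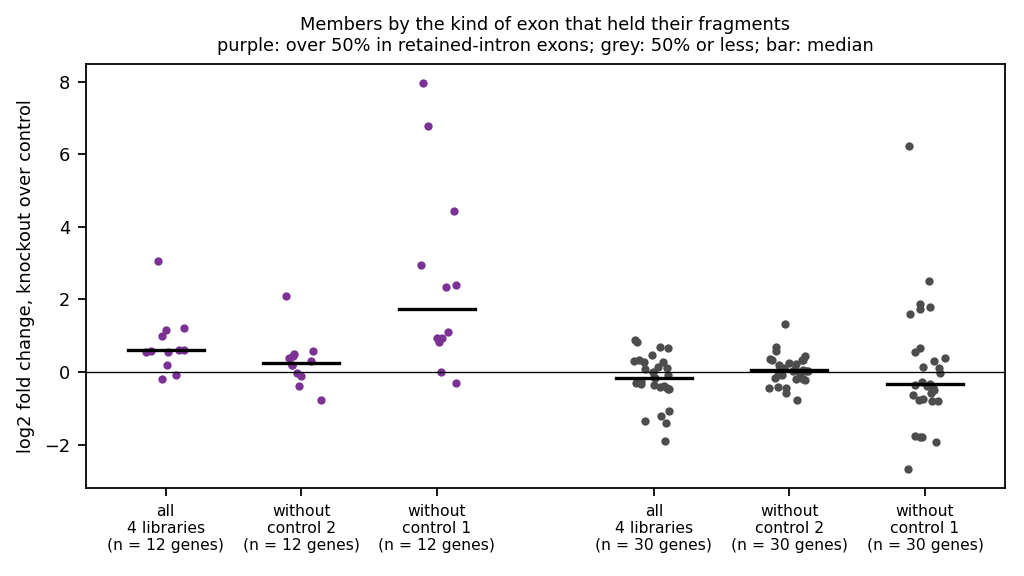
Log2 fold change of knockout over control for the tested members, divided by whether over 50% (purple, 12 genes) or 50% or less (grey, 30 genes) of their fragments lay in retained-intron exons, with all 4 libraries and without 1 control. Black bars are medians, 0.60 and -0.16 with all libraries and 0.25 and 0.04 without control 2.

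The median difference between libraries was smaller over the members than over all genes tested, and control 2 was apart for the members too. The median absolute log2 difference (of CPM + 0.5) over the 42 members was 0.33 between the knockouts and 0.91 between the controls, against 0.83 and 2.10 over all genes tested. Between each knockout and control 1 it was 0.32 and 0.45, so control 1 was about as near to the knockouts as they were to each other. Control 2 was the highest library for 18 members (42.9%, against 27% of all genes) and the lowest for 17 (40.5%, against 51.6%). No test was made of these differences. The members were not set against genes of similar level, so whether their smaller medians go with their level was not tested.

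Genes that work with the proteasome showed no call either. Of 28 such genes, 27 were in the tables and 25 were tested, with 0 called, 13 positive and 12 negative (median 0.06 on the log2 scale). Both knockouts lay above both controls for 3 of the 25 (19.5% of all genes) and below for 2 (11.2% of all genes). Uchl5, a deubiquitinase of the regulatory particle, had 23 and 16 fragments in the knockouts and 31 and 142 in the controls (log2 fold change -2.21, standard error 1.61). Akirin2, which brings proteasomes into the nucleus, was at 56.2 and 73.3 CPM in the knockouts and at 65.7 and 167.4 CPM in the controls (-0.85, standard error 0.82). Both had their highest level in control 2, as did Psmc6, Psmd6 and Psmd1.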

How the data were processed

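Per the labels, 4 libraries of cells labelled CD4+ T cells were made by oligo-dT priming, SMART amplification and a transposase. The deposited values are raw counts of fragments per annotated exon. The submitters' processing notes name Trim Galore 0.6.7 for trimming and STAR 2.7.9a for alignment. Per the file headers, featureCounts 2.0.1 counted paired fragments by exon entry, without strand or multi-mapping reads, on GRCm38 with GENCODE M23. Duplicate handling was not given in the sources used here.

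Exon entries were summed per gene, and symbols were matched for 55154 identifiers. Transcript types came from GENCODE M21, which holds 100% of the members' exon entries. Entries that share coordinates with another, 64.8% of all, held 0 fragments. Countable length differs between genes, so levels between genes were used only to choose genes to name. A change in transcript use alone can move a gene's counts.

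The comparison used edgeR 4.0.16 (R 4.3.3): TMM factors, filterByExpr (minimum count 10), quasi-likelihood test, two-sided, no covariates, Benjamini-Hochberg over 12434 genes at 0.05. DESeq2 1.42.0, limma-voom (limma 3.58.1), other factors and filters, omission of retained-intron exons and omission of each library were alternatives. The fitting code was tested on simulated data. Members and lists were chosen with earlier results of these data known. Named members were the inducible and constitutive catalytic subunits, the activators, Psmf1, Psma8 and Psmb11, in each other structural group the one with the highest mean CPM and the 2 with the lowest p, and the 3 with the lowest p in each direction. Psma3, Psma6, Psma7, Psmb1, Psmb2, Psmc3, Psmc4, Psmd2, Psmd5, Psmd13, Psmd14, Psmg1, Psmg2, B2m, Cd4 and Mettl3 are named outside this rule. A check for duplicate deposits of a library found none, with 45.6 to 182.2 as chi-square over its degrees of freedom between pairs of libraries.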

Additional observations from a re-analysis of the deposited data

How the results depend on the processing

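The count of proteasome members called was 0 under every alternative run. Over all genes 0 were called, but DESeq2 called 20 and edgeR without a low-count filter 27. With 1 library left out, between 0 and 4 genes were called, where a group's lone library is assumed to vary like the other group. Without control 1, 8 members had an unadjusted p under 0.05 (18.6%, against 31.7% of all genes). They were Psmb4, Psmb8, Psmc6, Psmd1, Psmd2, Psmd6, Psmg2 and Psmg3, at a lowest adjusted p of 0.0929 (edgeR). The members' median log2 fold change lay between -0.08 and 0.15 over all alternatives, and the median of all genes between 0.19 and 0.26 under the 3 scalings, but at 1.72 without control 1 and 0.05 without control 2. Of 25 named members tested, 24 kept their sign in every alternative that kept all libraries and gave a value. Psme2 was at 0.041 without a low-count filter.

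With 1 library left out, 12 named members changed sign, 10 of them without control 2. The ranges were -0.80 to 0.031 for Psma4, -0.77 to 0.35 for Psma5, -0.091 to 6.22 for Psmb10, -0.32 to 0.076 for Psmb5, -6.26 to 6.80 for Psmb7, -0.65 to 0.028 for Psmc2, -2.67 to 0.19 for Psmd1, -0.32 to 0.82 for Psmd9, -0.096 to 0.0050 for Psme2, -0.48 to 1.87 for Psme3, -0.78 to 0.10 for Psme4 and -0.78 to 4.45 for Psmg3. The values of Psmb7, Psmb10 and Psmg3 rest on groups at or near 0 fragments.

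The ratio of inducible to constitutive subunits was 0.0180 and 0.0154 in knockout 1 and knockout 2, and 0.0145 and 0.0344 in control 1 and control 2, without retained-intron exons, which removes all fragments of Psmb6 and Psmb7. With each gene's fragments divided by its exon bases covered by a single entry, it was 0.0802 and 0.0776 in the knockouts and 0.0610 and 0.0123 in the controls, which keeps control 2 lowest. That length is only approximate, since 7 member entries with no such base held 1793 fragments. No paired analysis was possible because the labels number no replicates. Psmb10, Psmb7, Psmb4, Psmf1 and Psmg1 had few fragments at a depth of 3614418 to 4537006 fragments, at which Psmb3 had 4399 in all. Many of their exon entries share coordinates with another, such as 21 of 29 for Psmf1 and 17 of 21 for Psmg1. For Psmb10 they were 17 of 34, for Psmb4 10 of 19 and for Psmb7 8 of 14. Why these genes had few fragments was not tested.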

Other observations

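Single exon entries of several members were counted almost only in control 2 or were missing there. In Psmb8, the entry of a protein-coding transcript at the start of the gene (chromosome 17, 34197790 to 34198545) had 5 and 0 fragments in the knockouts and 3 and 30 in the controls, so it held 30 of the 77 Psmb8 fragments of control 2. In Psmd1, a retained-intron entry (chromosome 1, 86064641 to 86067662) had 26 and 0 fragments in the knockouts and 1 and 190 in the controls. In Psmb2, an entry of a processed transcript (chromosome 4, 126687029 to 126687285) had 4 and 0 in the knockouts and 2 and 67 in the controls. In Psmd13, a retained-intron entry (chromosome 7, 140889305 to 140889719) had 6 and 0 in the knockouts and 0 and 95 in the controls, while the gene's 3′ entry (140897608 to 140898395) had 41 and 133 in the knockouts and 97 and 61 in the controls.

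The reverse was found in Psma3, where a retained-intron entry (chromosome 12, 70978733 to 70979694) had 85 and 218 fragments in the knockouts and 90 and 0 in the controls. The gene's last entry, of a protein-coding transcript (70994351 to 70996347), had 122 and 41 in the knockouts and 255 and 66 in the controls, so the order of the libraries depends on the exon. In Psmd9, a retained-intron entry (chromosome 5, 123228258 to 123229031) had 50 and 172 in the knockouts and 42 and 0 in the controls. Without retained-intron exons the log2 fold change of Psmd9 was 0.04, against 0.30 with them. These entries were chosen after their values were seen.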
